A study of Drosophila melanogaster with 13 samples.

Results

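The sites described here are those that the PitaZ276 FLAG peak list holds beyond the PitaΔZ FLAG list, together with the order of the sites that both lists hold. A PitaZ276 FLAG peak that overlapped no PitaΔZ FLAG peak by at least 1 bp is called an added site, and one that overlapped is called a shared site. There were 563 added sites among the 1243 PitaZ276 FLAG peaks, and 680 shared sites. Binding was mapped by ChIP-seq, which sequences the DNA that an antibody pulls down, in whole adult Drosophila melanogaster 2 to 3 days old, with 2 libraries for each line and antibody. PitaZ276 flies had the genotype pita1attP PitaZ276 and carried the ZAD-like domain of human ZFP276 in Pita. PitaΔZ flies had the genotype y1w1118; pita1attP PitadeltaZ and carried Pita without its ZAD. Pitawt flies, pita1attP Pitawt, carried the wild-type protein. All 3 lines carry pita1attP, and y1w1118 stands in the label of PitaΔZ alone. The labels do not give the amount of tagged protein in each line, and whole flies mix many cell types.

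Pita is a zinc-finger protein of Drosophila that binds insulators and boundaries, including boundaries of the bithorax complex, and many gene promoters. Its ZAD, the zinc finger-associated domain, lies at the end opposite the DNA-binding fingers and pairs Pita molecules with each other. The human ZFP276 domain has a related fold, so the comparison asks where Pita with a foreign pairing domain is called and Pita with none is not.

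Each line and antibody came with 1 deposited list, a join of a pair of peak lists made against the same preimmune library of Pitawt flies. No test over replicates was therefore possible, the depth is unknown, and intervals on shares are exact Clopper-Pearson 95% intervals that cover counting error only. The fold enrichment is the authors' value for each peak and was used only to describe or rank peaks within a list. Folds ran from 2.30 to 127 with a median of 9.90 in PitaZ276 FLAG, and from 2.58 to 380 with a median of 29.5 in PitaΔZ FLAG. The lists also differ in other values. The smallest −log10 irreproducible discovery rate (IDR) was 1.31 in PitaZ276 FLAG and 2.01 in PitaΔZ FLAG, and over all peaks the −log10 p values of the joined pair had a Spearman rho of 0.896 in PitaZ276 and 0.992 in PitaΔZ. The part of list length, depth and threshold in the results below was not tested, except where a value without the weaker peaks is given.

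The PitaZ276 list held many sites beyond the PitaΔZ list and lacked few of its sites. Added sites were 45.3% of the PitaZ276 FLAG list (42.5 to 48.1). In the other direction, 674 of the 685 PitaΔZ FLAG peaks met a PitaZ276 peak and 11 (1.61%) did not. With a −log10 IDR of at least 2 in both lists, which kept all 685 PitaΔZ peaks, 420 added sites were left. With the PitaZ276 list shortened to its strongest 685 peaks, as many as PitaΔZ has, 94 were left.

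Added sites lay in the weak part of the PitaZ276 list. Their folds ran from 2.30 to 29.9 with a median of 4.98, against 2.93 to 127 with a median of 17.8 at shared sites. Their peaks were also narrower, with a median width of 798 bp against 1794 bp, and 143 of the 563 (25.4%) had a −log10 IDR under 2, against 5 of the 680 shared sites (0.735%). No added site was among the strongest 100 PitaZ276 peaks, a count of 0 that allows a share of up to 3.62%. There were 2 among the strongest 200, 14 among the strongest 400 and 36 among the strongest 500. In 5 bins of equal size, from the strongest peaks to the weakest, the added share was 1.61%, 12.1%, 37.3%, 81.9% and 93.6%.

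**Figure D1:**
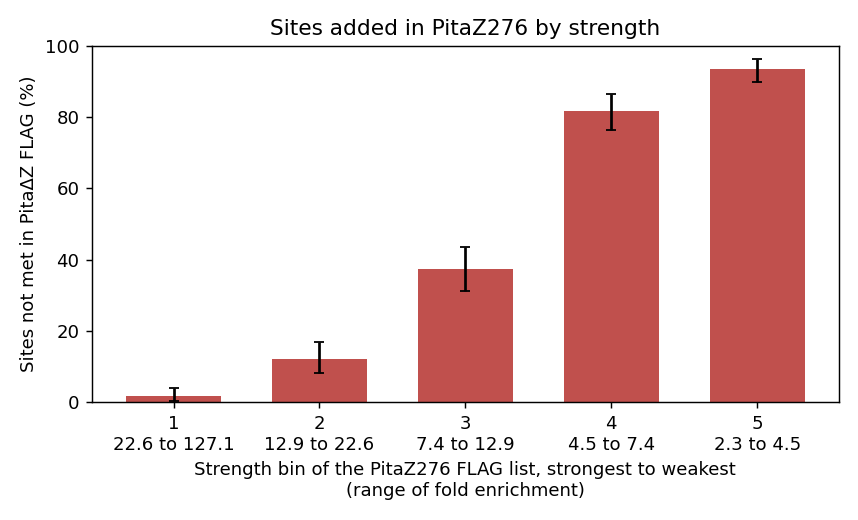
Share of PitaZ276 FLAG sites that met no PitaΔZ FLAG site (y axis, %) in 5 equal bins of that list by fold enrichment (x axis, strongest to weakest, with the range of folds). Bars are shares of 248 or 249 sites with exact 95% intervals, and they climb from 1.61% in the strongest bin to 93.6% in the weakest.

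The strongest added sites were, with 1 exception, sites of wild-type Pita. Of the 10 with the highest PitaZ276 FLAG fold, 9 met both Pitawt lists, all 10 met the PitaZ276 Pita list, 8 met the PitaΔZ Pita list and 5 lay on chromosome X, which holds 18.8% of the whole PitaZ276 FLAG list. Of the 10, 4 fell in the strongest of 5 bins (folds of 22.6 to 127) and the others in the second bin. Shared sites in the strongest bin met Pitawt FLAG at 245 of 245, PitaZ276 Pita at 95.1% and PitaΔZ Pita at 91.0%. In the second bin (12.9 to 22.6) shared sites met Pitawt FLAG and PitaΔZ Pita at 218 of 218 each, and PitaZ276 Pita at 62.8%. The first of the 10 added sites lay inside Mur2B, a mucin-related gene (X, 1559386 to 1561396). It had a fold of 29.9 in PitaZ276 FLAG and 71.6 in Pitawt FLAG. It was place 153 of 1243 in PitaZ276 and place 56 of 1792 in Pitawt. In PitaΔZ it was called with the Pita antibody, at a fold of 3.87 and place 703 of 797. The second lay 131 bp from an end of Prosap, a Shank-family scaffold gene of synapses (2R, 14140655 to 14141897). Its fold was 27.1 in PitaZ276 FLAG and 42.7 in Pitawt FLAG, and in PitaΔZ Pita it was 4.25 at place 680.

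The other strong added sites lay at genes of varied kinds. The third, at CG13896 and CkIIalpha-i3 (3L, 709532 to 712178), had a PitaZ276 FLAG fold of 25.2 and met no PitaΔZ list. The site between Pgant7, a glycosyltransferase gene, and the DNA repair gene Xrcc2 (X, 18499150 to 18500840) had a fold of 22.8. One inside Tlk, the Tousled-like kinase gene, had 21.6, and one inside Flo2, a flotillin gene, had 18.6 and the highest PitaΔZ Pita fold of the 10, at 10.1. The others were at CG13365 and Vsp37A (18.6), at Dph2 (17.9), a gene of diphthamide synthesis, and at hbs (17.6), a cell adhesion gene of the immunoglobulin family. The site at Dph2 lay 406 bp from a PitaΔZ FLAG peak. In Pitawt FLAG the sites inside Tlk and Flo2 had folds of 42.7 and 32.6, and the site at CG13896 had 20.0.

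The exception was a site at CG12134 and eIF3j, which encodes a subunit of translation initiation factor 3 (2R, 9970784 to 9972704). Its summit lay 10 bp from an end of CG12134. It was place 299 in PitaZ276 FLAG with a fold of 19.9, and it met the PitaZ276 Pita list at a fold of 2.85, place 488 of 492. Neither Pitawt list and neither PitaΔZ list met it.

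Across all added sites, most were wild-type FLAG sites. Added sites met Pitawt FLAG at 444 of 563 (78.9%, 75.3 to 82.2), against 661 of 680 shared sites (97.2%, 95.7 to 98.3) and 88.9% of the whole PitaZ276 FLAG list. With the Pita antibody in Pitawt the shares were 49.4% of added and 85.6% of shared sites, against 69.2% of the whole list. The 444 added sites that met Pitawt FLAG had there a median fold of 10.4 and a median place of 903.5 of 1792. The 661 shared sites that met it had a median fold of 25.6 and a median place of 369. Within the strength bins the intervals of added and shared sites overlapped. Pitawt FLAG met 98.9% of added and 98.1% of shared sites in the middle bin, 84.2% of added and 82.2% of shared sites in the next, and 63.5% of added and 50.0% of shared sites in the weakest.

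Most added sites were not called in PitaΔZ with the Pita antibody either. Of the 563 added sites, 105 (18.7%, 15.5 to 22.1) met a PitaΔZ Pita peak, against 646 of 680 shared sites and 60.4% of the whole list. That left 458 (81.3%) called in PitaΔZ with neither antibody. Here the sites did differ within bins, with 32.3% of added and 97.4% of shared sites meeting PitaΔZ Pita in the middle bin, and 20.2% of added and 88.9% of shared sites in the next. PitaΔZ Pita comes from the same line as the list that defines added sites, and it met 95.5% of all PitaΔZ FLAG peaks. This difference was therefore set in part by the definition. The strongest bin held only 4 added sites, of which 3 met PitaΔZ Pita, against 223 of 245 shared sites (91.0%). The 105 had a median PitaZ276 FLAG fold of 7.13 and the 458 a median of 4.59. In its own line the Pita antibody gave few of the added sites, 59 (10.5%) against 414 of 680 shared sites (60.9%) and 38.1% of the whole list, and that list has only 492 peaks. Within the strength bins the intervals overlapped, with 60.0% of added and 62.8% of shared sites in the second bin, 31.2% of added and 26.9% of shared sites in the middle bin, and 3.45% of added and 4.44% of shared sites in the next.

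**Figure D2:**
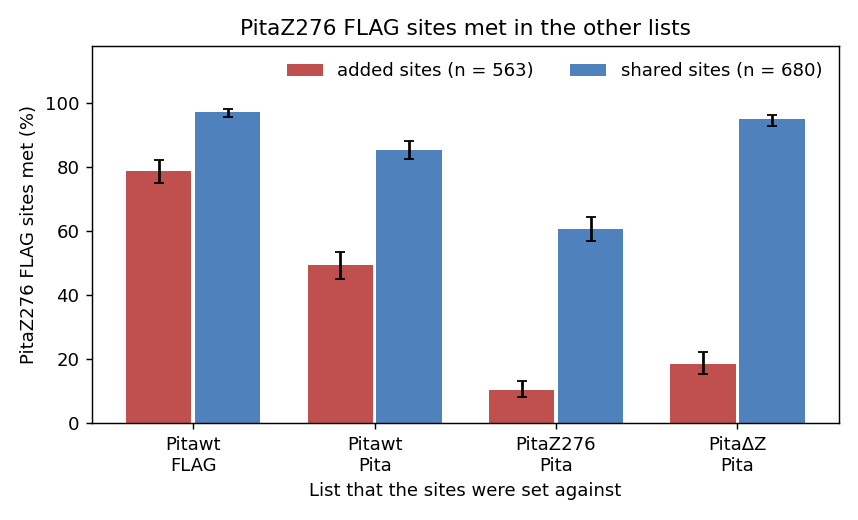
Share of added sites (n = 563) and shared sites (n = 680) of the PitaZ276 FLAG list that met a peak of each other list (y axis, %), with exact 95% intervals. Added sites met Pitawt FLAG at 78.9% and PitaΔZ Pita at 18.7%, against 97.2% and 646 of 680 for shared sites.

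A smaller group of 117 added sites met neither Pitawt list. They were weak, with a median PitaZ276 FLAG fold of 3.92. Of the 117, 1 (0.855%) met the PitaZ276 Pita list, against 10.5% of all added sites. The PitaΔZ Pita list met 11 (9.40%), against 18.7% of all added sites. After CG12134 the strongest were inside P5cr-2 (fold 7.89), at corolla (7.01), a gene of the synaptonemal complex, ppk14 (6.84), of the pickpocket sodium channel family, and CG13623 with ana1 (6.81), a centriole gene. The peaks inside P5cr-2 and at corolla lay 282 bp and 269 bp from a PitaΔZ FLAG peak, and corolla also had a shared summit. The sites at ppk14 and CG13623 met the PitaΔZ Pita list, at folds of 5.35 and 2.81. The peak inside P5cr-2 had a −log10 p of 43.8 in one joined list and 1245 in the other, with a −log10 IDR of 1.61.

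Added sites lay less often at gene ends than shared sites and more often inside genes. A summit within 500 bp of either end of a gene was counted as at a gene end, since the annotation used gives no strand. On the chromosome arms 283 of 560 added summits (50.5%, 46.3 to 54.8) lay at a gene end, against 483 of 677 shared summits (71.3%, 67.8 to 74.7) and 61.9% of the whole list. Inside genes and away from their ends lay 227 added summits (40.5%) and 122 of the 677 shared summits. Between genes lay 50 added summits (8.93%) and 72 shared summits (10.6%). The median distance to a gene end was 489 bp for added and 169 bp for shared summits. Within 200 bp lay 22.1% of added and 53.0% of shared summits, and within 1000 bp 63.9% of added and 80.4% of shared summits.

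Added sites also lay less often where the ends of several genes come close together. More than 1 gene had an end within the window at 123 added summits (22.0%) and at 265 shared summits (39.1%). Location also moved with strength. In the strength bins, from strongest to weakest, the gene-end share was 75.0%, 56.7%, 51.6%, 55.7% and 44.4% among added sites and 78.2%, 72.0%, 67.9%, 45.5% and 62.5% among shared sites. The intervals of added and shared sites overlapped in each of the 5 bins. The part of strength in the difference of location was not tested further.

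**Figure D3:**
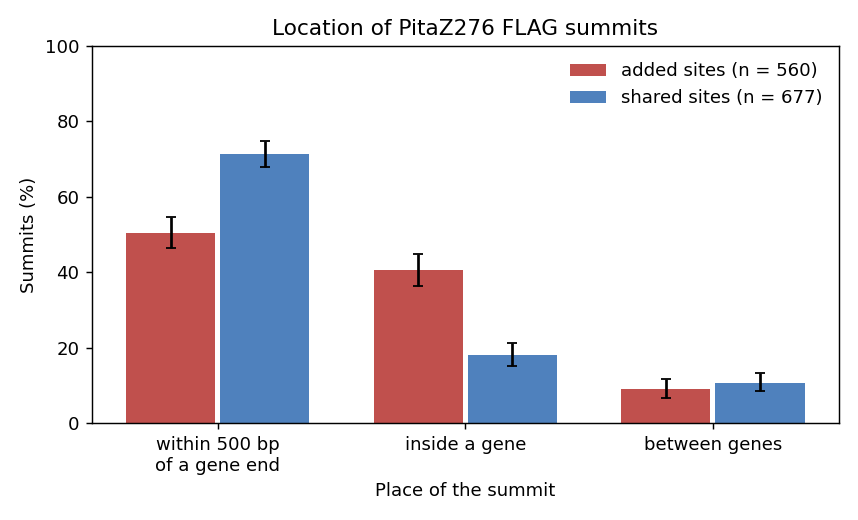
Share of PitaZ276 FLAG summits (y axis, %) within 500 bp of a gene end, inside a gene or between genes, for added sites (n = 560) and shared sites (n = 677) on the chromosome arms, with exact 95% intervals. Gene ends held 50.5% of added and 71.3% of shared summits, and gene interiors held 227 and 122.

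Few added sites lay beside a PitaΔZ peak. The gap to the nearest PitaΔZ FLAG peak had a median of 39080 bp and was at least 147 bp, and 22 added sites (3.91%) lay within 1000 bp of one. By chromosome, added sites were 45.9% of the PitaZ276 peaks on 2L, 47.4% on 2R, 48.8% on 3L, 44.3% on 3R and 39.3% on X (33.0 to 45.9), and 5 of 7 on chromosome 4. The large autosome arms together had 46.5% (43.4 to 49.6), an interval that overlaps that of X.

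An added summit lay at an end of 417 genes, 2.36% of the 17684 genes on the chromosome arms. Of these, 406 (2.3%) had no shared or PitaΔZ FLAG summit. Shared summits reached 767 genes (4.34%), all PitaZ276 FLAG summits 1174 (6.64%) and PitaΔZ FLAG summits 769 (4.35%). The 417 held 370 protein-coding genes, 2.66% of that class. They also held 16 long noncoding (0.817% of their class), 14 antisense (2.78%), 7 tRNA (2.41%) and 6 snoRNA genes (2.23%).

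Genes of the cytosolic ribosome had both kinds of site. Of 92 measured ribosomal protein genes, 6 (6.52%) had an added summit at an end, against 2.36% of all genes, and 20 had a shared one, against 4.34%. The added ones were RpS10b, with a fold of 11.6 in PitaZ276 FLAG, RpS26 (6.31), RpL41 (4.19), RpS27 (4.14), RpS20 (3.53) and RpS18 (2.77). RpS27 also had a shared summit. The sites at RpS10b, RpS26, RpL41 and RpS20 met Pitawt FLAG, at folds of 12.8, 14.1, 10.7 and 8.59, and those at RpS27 and RpS18 did not.

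Several other lists had 1 to 3 members each with an added summit. With such counts their shares are not set apart from the 2.36% of all genes. Among 53 translation factor genes 3 had an added summit, eIF3j (19.9), eIF4H1 (7.91) and eRF3 (3.95), and 6 had a shared one. Oxidative phosphorylation had 2 of 92, ND-15 (10.3) of complex I and COX7A (6.07) of complex IV, and the proteasome 2 of 48, Prosalpha4T2 (4.98) and Rpt3R (3.92). Mitochondrial ribosomal proteins had 1 of 73, mRpL52 (5.35), and replication origin factors 1 of 22, dpa (4.47), which encodes an MCM helicase subunit. The summits counted for eRF3, COX7A, Prosalpha4T2, Rpt3R and mRpL52 lay nearest to SC35, Arl2, Ssl, Tti1 and CG12107, in that order. Of 30 genes of architectural proteins, BEAF-32, which encodes a boundary-binding protein, had an added summit, with a fold of 10.0 in PitaZ276 FLAG and 9.97 in Pitawt FLAG, and none had a shared one.

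Small RNA genes were near the share over all genes. tRNA genes had 7 of 290 (2.41%) and snRNA and snoRNA genes 6 of 301 (1.99%), and several of these share a peak. Thus 4 snoRNA genes fell to a single peak inside kra (3R, 5596126 to 5596628), with a fold of 3.99 in PitaZ276 FLAG and 32.0 in Pitawt FLAG, and the other 2 to the peak inside RpS20. No member of the lists for Hox and segmentation genes (30), Polycomb and trithorax genes (26), germline (18), muscle (15), neuronal (13) or fat body and gut genes (12) had an added summit at an end. These lists are short, and over all genes the share was 2.36%. The Hox, muscle and fat body and gut lists had no PitaZ276 FLAG summit of any kind at an end. Farther from gene ends, an added site lay inside the Hox gene pb (3R, 6708019 to 6710287), 1260 bp from its nearest end. Its fold was 16.4 in PitaZ276 FLAG, at place 383, and 38.8 in Pitawt FLAG. Another lay between genes, 1291 bp from pb, with a fold of 8.10 in PitaZ276 FLAG.

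The 11 sites called in PitaΔZ FLAG and not in PitaZ276 FLAG were of middle to low strength in PitaΔZ. The strongest lay between genes, 1625 bp from IA-2, a protein tyrosine phosphatase-like gene, with a fold of 18.4 at place 431 of 685. The next lay inside CG31886 (13.7) and at scramb1 (9.03), a phospholipid scramblase gene, which had a second such peak nearby (8.44). Others were inside nahoda (8.92), at CG12951 (8.79), inside lncRNA:Hsromega (7.12) and nearest to CG10651 (6.95). The rest lay at the exchanger gene Nckx30C (6.50), inside the Hox gene Antp (5.64) and, outside the chromosome arms, on Y_CP007111v1_random (2.58). Not all lay apart from PitaZ276 peaks, since the peaks inside CG31886 and at Nckx30C had an added PitaZ276 peak 256 bp and 241 bp away. Of the 11, 9 met PitaΔZ Pita, against 95.5% of all 685 PitaΔZ FLAG peaks. Pitawt FLAG met 6 of them, against 97.2%, Pitawt Pita met 2, against 86.1%, and PitaZ276 Pita met 0, against 60.7%.

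At shared sites the order of folds was alike but not the same in both lines. Pairing each peak with the one it overlapped most gave 667 pairs, and each list was ranked over these pairs, with place 1 the highest fold. Spearman's rho between the lines was 0.709 over the 667 sites, which share the preimmune library, and it is given as a description. It was 0.719 with the −log10 p of the first joined list and 0.679 with that of the second. Within a line the joined lists gave 0.838 in PitaZ276 and 0.992 in PitaΔZ over the same sites, so the joined lists of PitaZ276 matched less closely. The median difference was 88 places. Of the strongest 10 in PitaZ276, 6 were among the strongest 10 in PitaΔZ, and of the strongest 100, 66 were. Summits coincided closely, with a median gap of 18 bp and 592 of the 667 (88.8%) within 100 bp.

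The heads of the orders overlapped in part, with 12 of the strongest 25 and 25 of the strongest 50 held in common. The site at Rala, a small GTPase gene (X, 3719028 to 3720876), was first in both lists, with a fold of 127 in PitaZ276 and 380 in PitaΔZ. Socs36E, a regulator of JAK/STAT signalling, was at place 2 in PitaZ276 and 4 in PitaΔZ. Men-b, a malic enzyme gene, was at 3 in PitaZ276 and 8 in PitaΔZ, and ATPsynC, which encodes an ATP synthase subunit, at 4 in PitaZ276 and 6 in PitaΔZ. CG6073 was at 5 in PitaZ276 and 2 in PitaΔZ, and Galphai, a G protein subunit gene, at 6 in PitaZ276 and 11 in PitaΔZ. The next sites, at CG2121 and inside nemy, were at places 7 and 8 in PitaZ276 but at 97 and 91 in PitaΔZ.

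**Figure D4:**
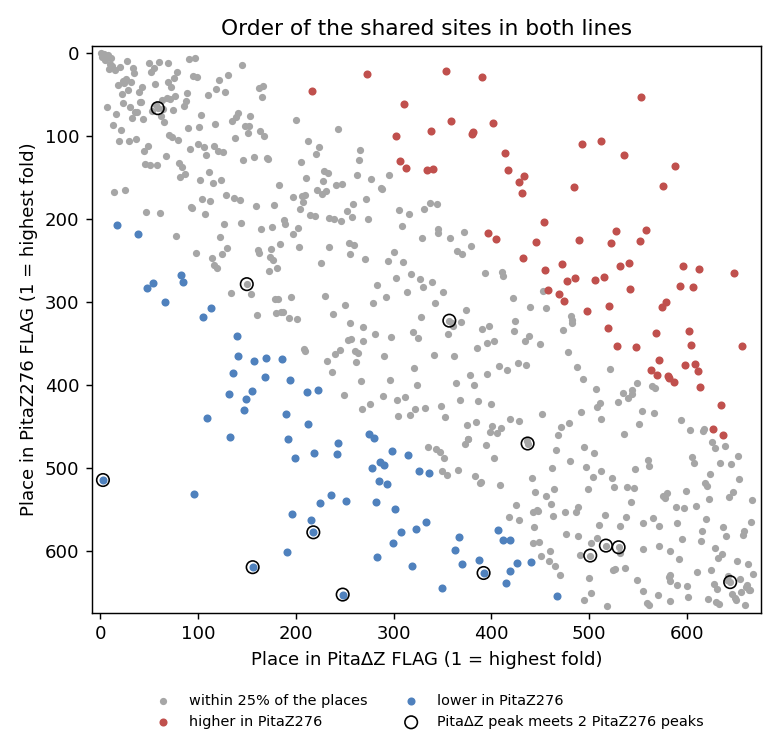
Place of each of the 667 shared sites in PitaZ276 FLAG (y axis, 1 at the top is the highest fold) against its place in PitaΔZ FLAG (x axis). Sites over 25% of the places higher in PitaZ276 (78) and lower (76) are coloured, and rings mark sites where a PitaΔZ peak met 2 PitaZ276 peaks.

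A difference of more than 25% of the places, which is 166.75 places, was found at 154 of the 667 sites (23.1%). At 78 (11.7%) the place was higher in PitaZ276 and at 76 (11.4%) lower, and by the second joined list 75 of the 78 and 68 of the 76 differed the same way. The 78 had a median place of 256 in PitaZ276, 517 in PitaΔZ and 228.5 in Pitawt FLAG. The 76 had a median place of 498.5 in PitaZ276, 230.5 in PitaΔZ and 469 in Pitawt FLAG, where places run over the 652 sites that Pitawt FLAG met. In both groups the median place in PitaZ276 was nearer to that in Pitawt than the place in PitaΔZ was, a description, since the sites were chosen by their difference. The PitaZ276 Pita list met 68 of the 78 and 27 of the 76, against 60.9% of all shared sites, and it met weak PitaZ276 FLAG peaks less often in general. The PitaΔZ Pita list met 78 of the 78 and 74 of the 76, near the 646 of 680 over all shared sites.

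The site that stood most higher in PitaZ276 lay inside CG11905 (3L, 16928474 to 16933100). It was at place 53 in PitaZ276, 553 in PitaΔZ and 25 in Pitawt, with a fold of 46.3 in PitaZ276 and 10.7 in PitaΔZ, and its peak was 4627 bp wide in PitaZ276 and 732 bp in PitaΔZ. A site inside Drak, a kinase gene (X, 11519885 to 11521475), was at 161 in PitaZ276, 575 in PitaΔZ and 85 in Pitawt. At CG13707 (3L, 4839639 to 4841263) the places were 123 in PitaZ276, 536 in PitaΔZ and 19 in Pitawt. The sites inside Nost and lncRNA:CR43836, and inside l(3)mbn, were at 106 and 110 in PitaZ276, against 512 and 493 in PitaΔZ. The remaining site of the 6 was on Y_CP007111v1_random, at 137 in PitaZ276 and 588 in PitaΔZ.

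Of the 6 sites that stood most lower in PitaZ276, the places of 3 depended on the pairing. At dj-1beta, yrt and Act88F, the flight muscle actin gene, a PitaΔZ peak met 2 PitaZ276 peaks, and the largest overlap chose the weaker one. Paired by the nearest summit, the first of these became a site at cindr at place 19 in PitaZ276 (fold 60.7) and 3 in PitaΔZ (fold 363), where the largest overlap gave place 515 in PitaZ276. The difference at yrt became −218 places in place of −464, and at Act88F −353 in place of −405. The other 3 had single overlaps. They lay inside lncRNA:iab8 in the bithorax complex, at 532 in PitaZ276, 96 in PitaΔZ and 379 in Pitawt, and at CG8172, at 602 in PitaZ276, 191 in PitaΔZ and 507 in Pitawt. Inside lncRNA:iab8 the summits of the 2 lists lay 547 bp apart, so these places may not be of the same summit. The last lay inside Egfr, the epidermal growth factor receptor gene, and 181 bp from an end of CG30286. It was at 556 in PitaZ276, 196 in PitaΔZ and 525 in Pitawt.

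**Figure D5:**
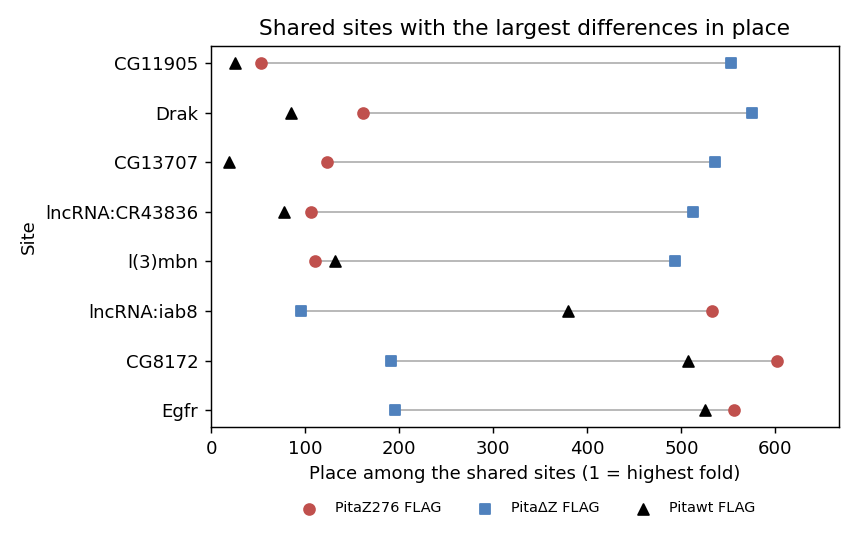
Place among the 667 shared sites in PitaZ276 FLAG (circles) and PitaΔZ FLAG (squares), and among the 652 of them met by Pitawt FLAG (triangles), for the named sites with the largest differences that have single overlaps and lie on chromosome arms. The upper 5 were at 53 to 161 in PitaZ276 and at 493 to 575 in PitaΔZ, and the lower 3 at 532 to 602 in PitaZ276 and at 96 to 196 in PitaΔZ.

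Sites at cytosolic ribosomal protein genes stood lower in the PitaZ276 order. The 19 shared sites at ends of these genes had a median difference of −54 places, against −2 over all 667, and 16 of the 19 were lower in PitaZ276, against 335 of all 667. By the second joined list the median was −57, against −7 over all, with 14 of 19 lower. Lists with 6 shared sites each went both ways. Their medians were −76 for mitochondrial ribosomal proteins, 38 for translation factors and 45.5 for oxidative phosphorylation. RpS23 was at place 460 in PitaZ276, 275 in PitaΔZ and 394 in Pitawt, and RpS28a at 165 in PitaZ276, 26 in PitaΔZ and 169 in Pitawt. RpL17 differed the other way, at 15 in PitaZ276, 145 in PitaΔZ and 81 in Pitawt.

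The bithorax complex, where Pita is known at boundaries, held shared and added sites. The site at Abd-B (3R, 16969380 to 16970759) had a fold of 60.4 in PitaZ276 FLAG and 106 in PitaΔZ FLAG, and stood at place 19 of the shared sites in PitaZ276 and 55 in PitaΔZ. A weak added peak lay inside Abd-B (3R, 16957852 to 16958102), with a fold of 6.17 at place 828 of 1243 in PitaZ276, and it met Pitawt FLAG. Between abd-A and Abd-B, the site inside lncRNA:iab8 named above (3R, 16868409 to 16870275) had a fold of 10.4 in PitaZ276 and 80.6 in PitaΔZ, with the summits of the 2 lists 547 bp apart. A second one (3R, 16898227 to 16900139) had a fold of 27.3 in PitaZ276 and 18.2 in PitaΔZ, at place 169 of the shared sites in PitaZ276 and 431 in PitaΔZ. Of these 3 shared sites, those at Abd-B and nearest to lncRNA:CR43617 thus stood higher in the PitaZ276 order and the other lower.

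At Orc4, an origin recognition complex gene, the fold was 26.4 in PitaZ276 and 38.8 in PitaΔZ, and the places over the shared sites were 182 in PitaZ276 and 259 in PitaΔZ. Inside pita itself the fold was 4.64 in PitaZ276 and 5.48 in PitaΔZ, near the foot of the order at 650 in PitaZ276 and 655 in PitaΔZ. A peak within 2 kb of Ubx and nearest to modSP had a fold of 7.69 in PitaZ276 and 13.2 in PitaΔZ, at 605 in PitaZ276 and 491 in PitaΔZ. Neither list held a peak within 2 kb of abd-A, CTCF, Cp190 or su(Hw).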

How the data were processed

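The deposited data are peak lists with 20 columns in the layout of an IDR join of a pair of peak lists, 1 per line and antibody, each set against the preimmune library per the list names. The submitters' processing notes name the build dm6 and, without versions, MACS2, Bowtie2, cutadapt, deepTools, Picard and bedtools. The fold enrichment (a ratio), the −log10 p and q and the IDR score (−log10 of the global rate) are as deposited by the authors. Positions, folds and q belong to the first joined list, since its columns repeat them, and 1 further column holds the −log10 p of the second. The files have no header, so these readings rest on the layout and the values. The sources used here do not say which library stands behind which joined list.

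Overlaps, ranks and exact Clopper-Pearson 95% intervals were computed with Python 3.11.15, numpy 2.4.6, pandas 2.3.3, scipy 1.17.1 and matplotlib 3.10.9, with the code for overlaps first tested on simulated peaks. Genes came from the RefSeq table of Release 6, without strand or exons. No genome sequence was used here, so no sequence is shown and a planned search for promoter words was not run. Sites were named by rule: the 10 strongest added sites, the 5 strongest added sites in no Pitawt list, every PitaΔZ-only site, the 8 strongest shared sites, the 6 most higher and 6 most lower in place, 9 fixed genes with 2 kb on each side, and up to 4 genes of each of 15 lists. Further ribosomal protein genes and pb were named after their values were seen. The comparison, the rule and the lists were chosen with earlier results of these data known.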

Additional observations from a re-analysis of the deposited data

How the results depend on the processing

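The added count was 397 to 710 in 9 settings and 94 with the PitaZ276 list shortened to its strongest 685 peaks, where 87.2% of PitaΔZ peaks were met and 98.9% of the added sites met Pitawt FLAG. With 50% reciprocal overlap 77.8% of PitaΔZ peaks were met, 68.6% of added sites met Pitawt FLAG and rho was 0.777. With summits within 100 bp the first 2 values were 87.3% and 61.6%. The Pitawt FLAG share was 85.0% at a −log10 q of at least 10, 86.6% at a fold of at least 4 and 85.7% at a −log10 IDR of at least 2. The gene-end share was 55.1% at a fold of at least 4, 22.1% (143 genes) with a window of 200 bp and 63.9% (647 genes) with 1000 bp. The window, the shortened list and the stricter overlap rules change what is counted, and the overlap rules were applied to Pitawt FLAG as well. The cuts on q, fold and IDR fell almost only on the PitaZ276 list. It kept 1131 of 1243 peaks at a −log10 q of at least 10, 1067 at the fold cut and 1095 at the IDR cut. PitaΔZ kept all 685 peaks at the cuts on q and IDR and 681 at the fold cut. A cut at a −log10 q of at least 5 dropped no peak from either list. The cause of these shifts was not tested further. In the other 11 settings rho was 0.679 to 0.736, and 104 to 173 sites differed by over 25% of the places in all 12. Positions of the second joined list, pairing by nearest summit and single overlaps were chosen after seeing the data. Named differences in place kept their sign in the 128 values that could be had, and 16 of 144 had none, 7 of them with 50% reciprocal overlap. Values that were no longer over 25% of the places were 4. They were dj-1beta (−16 by the second joined list and by the nearest summit), and yrt (−108) and Act88F (−120) by the second joined list. At yrt the nearest summit gave −218, still over 25% of the places though far from −464. No paired analysis was possible because each line and antibody has 1 list, and for the same reason no library could be left out. Depth is unknown, so a site that was not called cannot be taken as unbound.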

Other observations

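Paired by the nearest summit, further shared sites that stood lower in PitaZ276 were inside chas (place 579 in PitaZ276, 218 in PitaΔZ), at CG14960 (564 in PitaZ276, 216 in PitaΔZ), at tara, a transcriptional regulator gene (442 in PitaZ276, 109 in PitaΔZ), and at krimp, a gene of the piRNA pathway (465 in PitaZ276, 134 in PitaΔZ). These were named after their values were seen.

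PitaZ276 peaks were wider than PitaΔZ peaks over the shared sites, with medians of 1808 bp and 1431 bp. Even so, 13 PitaΔZ peaks met 2 PitaZ276 peaks each and 7 PitaZ276 peaks met 2 PitaΔZ peaks each. In 5 equal bins of the PitaZ276 fold the median width of added peaks was 1816 bp in the second bin and 592 bp in the weakest, against 1840 bp and 919.5 bp for shared peaks.

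Outside the chromosome arms the PitaZ276 list held 6 peaks, of which 3 were added. The strongest was the peak on Y_CP007111v1_random from 1350 to 1840, with a fold of 31.9 in PitaZ276 and 9.47 in PitaΔZ.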
